A study of Mus musculus with 2 samples.

Results

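The 28 genes described here encode enzymes of cholesterol and fatty acid synthesis and the proteins that regulate them. They were chosen by symbol from 43346 mouse genes listed in the tables, of which 21474 are protein-coding, and all 28 were found and tested. RNA labelled total RNA was sequenced from CH12.LX, an immortalized line from a mouse B cell lymphoma of strain B10.H-2aH-4bp/Wts, labelled female and of unknown age. The labels name no treatment, so the design holds 1 group with 2 libraries, biological replicates 1 and 2, each with its own biosample record. Nothing in the labels says how the cultures were grown, and both libraries come from a single established line, so they say nothing of how these genes vary among B cells. Levels are given in TPM, a length-scaled share of the transcripts of a library. Summed expected counts came to 49278383 for replicate 1 and 55950529 for replicate 2, of which the 28 genes took 0.434% and 0.383%. Protein-coding genes held only 24.4% and 24.3% of TPM, so levels read lower than they would on a scale of messenger RNA alone. All 6 B cell markers examined reached 1 TPM in both libraries, among them Cd79b, which encodes the Igβ subunit of the antigen receptor, at 121 and 125 TPM. Of 20 markers of T cells, myeloid cells, hepatocytes, adipocytes and fibroblasts, 18 were under 0.1 TPM in both libraries and only Cd3d reached 1 TPM, at 1.14 and 1.45 TPM. The 20 markers summed to 1.68 and 1.95 TPM, and Cd3e, Cd14, Ttr and Dcn had 0 counts in both.

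Cells build cholesterol from acetyl-CoA through mevalonate and the isoprenoid farnesyl diphosphate, which squalene synthase commits to sterols, and they build fatty acids from acetyl-CoA through malonyl-CoA. Both branches are governed by the SREBP transcription factors, which SCAP escorts from the endoplasmic reticulum to the Golgi for cleavage when membrane sterol is low and which the INSIG proteins hold back when sterol is plentiful. Dividing lymphocytes need both products for new membrane. SREBPs are known to act at target promoters together with NF-Y, which binds CCAAT boxes, and with SP1, which binds GC boxes.

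Because SREBP targets are regulated through their promoters, the 250 bases before the annotated start were read from RefSeq promoter sequences (GRCm38.p6) for the 23 of 28 genes that had an entry, 31 promoters in all. Fdps, Fdft1, Sqle, Scd1 and Scd2 had none. The windows below show examples from each group, 5′ to 3′ on the strand of the gene. Capitals mark CCAAT or its reverse complement ATTGG and, in Hmgcs1, the core letters of a sterol regulatory element, of which Srebf2 holds a shortened form.
Hmgcs1 (chr13:119690204-119690348, plus strand): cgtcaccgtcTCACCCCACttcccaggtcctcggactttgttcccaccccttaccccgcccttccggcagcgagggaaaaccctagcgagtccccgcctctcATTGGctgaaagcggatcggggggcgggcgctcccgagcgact
Mvd (chr8:122443423-122443487, minus strand): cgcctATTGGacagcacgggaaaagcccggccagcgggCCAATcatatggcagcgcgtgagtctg
Lss (chr10:76531505-76531585, plus strand): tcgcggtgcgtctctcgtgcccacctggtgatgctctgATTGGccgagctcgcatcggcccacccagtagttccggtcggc
Srebf2 (chr15:82147096-82147176, plus strand): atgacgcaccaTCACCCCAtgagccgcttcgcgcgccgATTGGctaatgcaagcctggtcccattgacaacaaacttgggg
Srebf1, downstream start (chr11:60210472-60210539, minus strand): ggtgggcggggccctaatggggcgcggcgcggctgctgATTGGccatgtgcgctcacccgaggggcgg
Insig1 (chr5:28071162-28071238, plus strand): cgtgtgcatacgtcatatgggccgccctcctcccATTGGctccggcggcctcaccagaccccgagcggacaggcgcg
Fasn (chr11:120824564-120824644, minus strand): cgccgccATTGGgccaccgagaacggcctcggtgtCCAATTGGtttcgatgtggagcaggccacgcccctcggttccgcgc

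CCAAT on either strand was found in 20 of the 31 promoters, or 64.5%, against 33.9% of 32851 mouse promoters of the same length. GGGCGG, the GC box, was found in 22 of them, or 71.0%, against 32.7%. The E-box letters CACGTG were in 5, or 16.1%, against 6.02%. TCACNCCAC, a sterol regulatory element core, was in the Hmgcs1 promoter alone among the 31, against 1.05% of all promoters. A shorter form, TCACNCCA, contained in the first and chosen after the sequences were seen, was in 3, those of Hmgcs1, Msmo1 and Srebf2, against 3.67%. The 32851 promoters were not limited to genes expressed in the line, and shares over promoters of expressed genes were not taken. Promoters of 1 gene can overlap, so the 31 are not independent. The windows around CCAAT in Cyp51, Hsd17b7, Msmo1, Dhcr7, Idi1 and Tm7sf2 lie partly or wholly in annotated exons of these genes. Some starts are not those of the main transcript here. For Pmvk the start was 89454541 on chromosome 3, while Pmvk-201 begins downstream at 89459118. The Insig2 start, 121332589 on chromosome 1, is that of Insig2-202, at 0 TPM in both libraries. These matches describe letters in a window and not bound sites.

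Transcripts of nearly the whole set were present. At 1 TPM or more in each library, 27 of 28 genes were detected, against 41.4% of all protein-coding genes, and 16 reached 10 TPM in both, against 14.5%. The median over the 28 genes was 11.8 TPM, beside 6.67 TPM over the 8895 protein-coding genes that were detected, and 11 of the 28 lay at or above the 90th percentile of protein-coding genes. Only Elovl6 was below the threshold. Together the 28 genes held 526 TPM in the first library and 497 TPM in the second, 0.215% and 0.205% of protein-coding TPM.

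**Figure D1:**
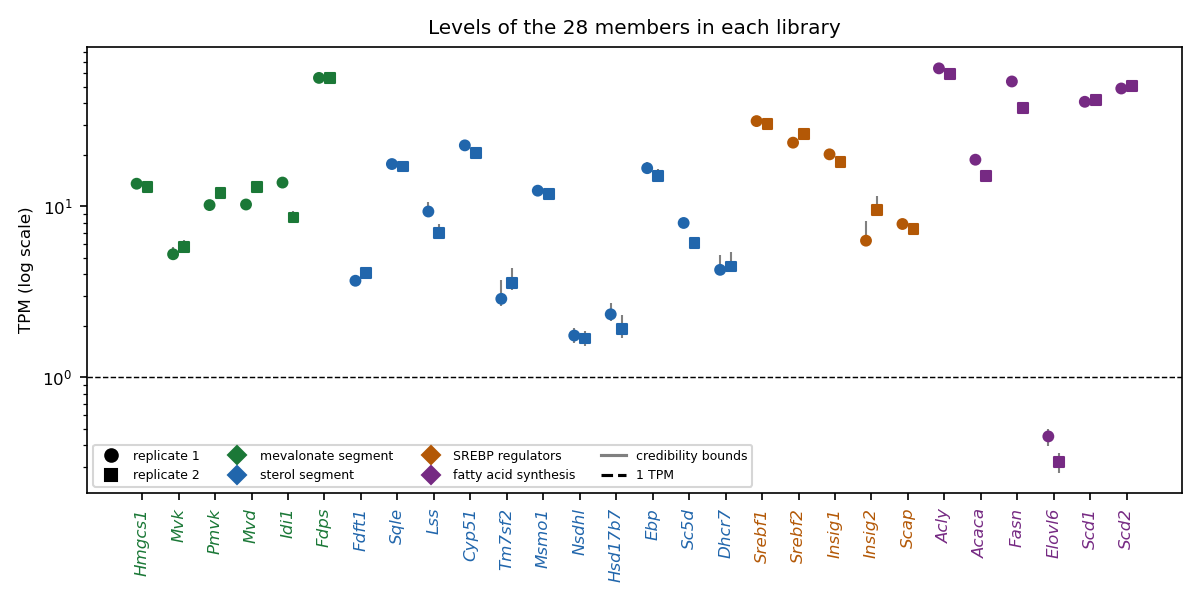
TPM of each gene in replicate 1 (circles) and replicate 2 (squares) on a log axis, ordered by step of the pathways and coloured by group, with grey bars for the deposited credibility bounds and a dashed line at 1 TPM. Acly, Fdps, Scd2, Fasn and Scd1 lie highest and Elovl6 alone lies under the line.

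The mevalonate segment had 6 of 6 genes detected, with a median of 11.4 TPM. Hmgcs1, which makes HMG-CoA, was at 13.5 TPM in replicate 1 and at 12.9 in replicate 2, the order kept for the paired values that follow. Mvk, mevalonate kinase, was at 5.23 and 5.79 TPM and Pmvk, phosphomevalonate kinase, at 10.1 and 11.9 TPM. Mvd, which decarboxylates mevalonate diphosphate to isopentenyl diphosphate, was at 10.2 and 12.9 TPM. These 4 enzymes lay between 5.23 and 13.5 TPM in both libraries. Fdps, farnesyl diphosphate synthase (chromosome 3, 89093588 to 89101959), stood apart at 56.2 and 56.1 TPM, a mean of 56.2 ± 0.0849 TPM (SD, n = 2) and second of the 28. It supplies farnesyl groups for sterols and for other isoprenoids. Idi1, the isopentenyl diphosphate isomerase (ENSMUSG00000058258.10, chromosome 13, 8885501 to 8892451), was at 13.7 and 8.59 TPM, the widest relative gap of the segment.

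Downstream of farnesyl diphosphate, all 11 sterol genes were detected but most at lower levels, with a median of 7.04 TPM. Cyp51, the lanosterol 14-alpha demethylase (chromosome 5, 4081145 to 4104746), was the highest at 22.7 and 20.4 TPM. Sqle, squalene epoxidase and a flux-controlling step, followed at 17.6 and 17.1 TPM (chromosome 15, 59315077 to 59331192). Ebp, the sterol isomerase, was at 16.7 and 15.04 TPM, and Msmo1, the C4 methyl oxidase, at 12.3 and 11.8 TPM. Fdft1, squalene synthase, was at 3.66 and 4.08 TPM, so its level was far below that of Fdps, which makes its substrate. Lss, which closes the sterol rings, was at 9.30 and 6.95 TPM, and Sc5d, the C5 desaturase, at 7.97 and 6.10 TPM. Dhcr7, the 7-dehydrocholesterol reductase, was at 4.24 and 4.43 TPM, above Fdft1. The lowest of the segment were Tm7sf2, a C14 reductase, at 2.87 and 3.56 TPM, Hsd17b7, the 3-keto reductase, at 2.33 and 1.91 TPM, and Nsdhl, the C4 decarboxylating dehydrogenase, at 1.75 and 1.68 TPM. In every sterol gene but Lss, Cyp51 and Sc5d the deposited credibility bounds of the libraries overlapped. Over the 28 genes the bounds were apart in 15, and the share over all genes was not taken. Overlap of the TPM bounds is not agreement of the libraries. Ebp, Hsd17b7, Tm7sf2, Fdft1 and Dhcr7 had overlapping bounds and still passed the test of counts below, without a ratio criterion. Lbr, the lamin B receptor, carries the same C14 reductase activity as Tm7sf2 and was at 32.2 and 27.1 TPM.

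Among the regulators, both SREBP genes were well expressed. Srebf1 (chromosome 11, 60199089 to 60222581) was at 31.4 and 30.2 TPM and Srebf2, whose product favours sterol genes, at 23.5 and 26.3 TPM (chromosome 15, 82147181 to 82205379). By gene totals Srebf1 exceeded Srebf2 in both libraries, by a ratio of 1.34 in replicate 1 and 1.15 in replicate 2. With only transcripts annotated as protein-coding, Srebf1 was at 24.4 and 23.4 TPM and Srebf2 unchanged, so Srebf2 was the higher in replicate 2. Scap, the escort, was at 7.86 and 7.34 TPM. Insig1, itself a classical SREBP target, was at 20.1 and 18.1 TPM (chromosome 5, 28071363 to 28078662). Insig2, the paralogue that does not depend on SREBP in the same way, was at 6.28 and 9.49 TPM (ENSMUSG00000003721.10, chromosome 1, 121304353 to 121332589). The ratio of Insig1 to Insig2 by TPM was therefore 3.20 in replicate 1 and 1.90 in replicate 2. It depends on the transcripts counted, since Insig2-201, which held most Insig2 counts, was at only 2.28 and 4.06 TPM.

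Fatty acid synthesis genes were the highest of the set, with a median of 43.4 TPM and a sum of 226 and 204 TPM. Acly, which makes cytosolic acetyl-CoA from citrate (chromosome 11, 100476353 to 100528000), led all 28 genes at 63.9 and 59.3 TPM. Acaca, the acetyl-CoA carboxylase that makes malonyl-CoA, was at 18.7 and 14.95 TPM. Fasn, the fatty acid synthase (chromosome 11, 120805846 to 120824547), was at 53.6 and 37.3 TPM, a mean of 45.4 ± 11.5 TPM (SD, n = 2), the widest absolute gap of the 28. Its credibility bounds, 51.7 to 55.1 TPM and 35.9 to 38.6 TPM, did not overlap. The stearoyl-CoA desaturases Scd1 and Scd2, which introduce the first double bond, were both high in the 2 libraries. Scd2 (chromosome 19, 44293674 to 44306864) was at 48.7 and 50.5 TPM and its neighbour Scd1 at 40.8 and 41.8 TPM, so that the level of Scd2 was higher than that of Scd1 in both.

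Elovl6, which lengthens palmitate toward stearate (chromosome 3, 129532355 to 129638495), was the exception at 0.45 and 0.32 TPM, on 287 and 221 expected counts. Its mean of 0.385 TPM still lay at the 52.6th percentile of protein-coding genes, since many of those are silent in the line. The other elongase genes of the lists, taken as a family after their values were seen, were uneven too. Elovl1 was at 11.7 and 11.6 TPM and Elovl5 at 10.97 and 11.7 TPM, both well above Elovl6. Elovl7 was at 0.64 and 0.85 TPM, Elovl4 at 0.07 and 0.01 TPM, and Elovl3 at 0 and 0.01 TPM. Elovl2 had 0 counts, which allows up to 0.00754 and 0.00691 TPM (3 counts, counting error only).

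In the order of mean level, from Acly, Fdps and Scd2 down to Nsdhl and Elovl6, 17 of 27 neighbouring pairs had values that did not overlap between the genes, and 9 of 27 also had credibility bounds that were apart in both libraries. The order was unresolved between Scd2, Fasn and Scd1, between Sqle, Acaca and Ebp, among Msmo1, Mvd, Idi1 and Pmvk, and among Lss, Insig2, Scap and Sc5d, where the ranges over the libraries overlapped.

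Transcript tables showed that for 16 of 28 genes a single transcript held 90% or more of TPM in both libraries. Among these were Fdps, Hmgcs1, Scd1, Scd2, Srebf2, Insig1, Scap and Elovl6. Each of these, like Mvd and Fdft1, has only 1 transcript listed, so its share of 100% was fixed by the annotation. For 7 genes, transcripts annotated as protein-coding held under 90% of TPM in both libraries. Ebp was the extreme case. Its coding transcripts held 45.7% of TPM in replicate 1 and 33.0% in replicate 2, 7.62 and 4.96 TPM, and the rest was assigned to Ebp-204 and Ebp-202, short transcripts with a retained intron. By expected counts, the coding transcript Ebp-201 held 66.7% and 53.3%. Ebp therefore ranks lower among the sterol genes when only coding transcripts are counted.

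The same split lowered Fasn to 39.7 and 28.3 TPM for Fasn-201, with retained intron transcripts taking much of the remainder by TPM, although Fasn-201 held 97.6% and 97.9% of its expected counts. Short transcripts weigh more in TPM than in counts, so the 2 shares differ. For Lss, the coding transcript Lss-201 was at 6.33 and 5.69 TPM and the retained intron transcript Lss-205 at 1.42 and 0.05 TPM, so the gap between libraries at the gene level lay partly in that short transcript. Insig2-201, of 2697 bases, was at 2.28 and 4.06 TPM and held 81.1% and 85.5% of Insig2 counts. Insig2-212, of 478 bases, took 47.9% and 45.6% of Insig2 TPM on only 13.5% and 11.3% of its counts.

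**Figure D2:**
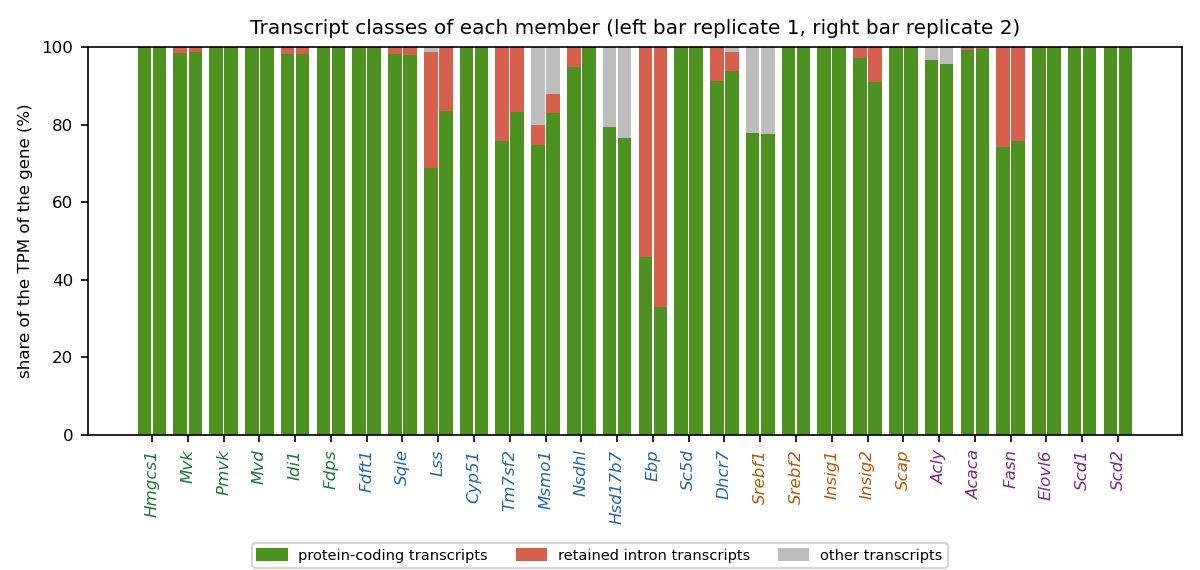
Share of the TPM of each gene, in percent, held by protein-coding, retained intron and other transcripts, with the left bar for replicate 1 and the right bar for replicate 2. Ebp has the smallest coding share, 45.7% and 33.0%, and most genes are near or at the top of the axis.

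Srebf1 has an upstream promoter, known to give SREBP-1a with its long activation domain, and a downstream promoter known to give SREBP-1c. Srebf1-201, which begins at 60220604 on chromosome 11, held 52.4% of Srebf1 TPM in both libraries, at 16.5 and 15.8 TPM. Srebf1-207, which begins 10139 bases further downstream at 60210465, held 15.5% and 15.9%, at 4.86 and 4.81 TPM. Srebf1-201 exceeded Srebf1-207 by a ratio of 3.39 and 3.29. Another coding form, Srebf1-203, begins further downstream at 60207188 and was at 3.10 and 2.80 TPM. By expected counts the shares were 69.3% and 69.8% for Srebf1-201 and 14.9% and 15.4% for Srebf1-207, with 12.3% and 11.6% for Srebf1-203. Most of the sequence is common to both forms, so these shares are estimates.

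In the remaining genes with no transcript at 90%, the forms with 10% or more of TPM in both libraries were few. Acly-203 held 65.8% and 67.2% of Acly TPM and Acly-207, also coding, held 24.97% and 19.3%. Acaca-201 held 62.8% and 68.2%, and Acaca-206, of only 431 bases, held 23.5% and 23.97% of TPM on 1.07% and 1.00% of counts. In Tm7sf2, Tm7sf2-201 held 39.7% and 40.5% and Tm7sf2-205 held 24.3% and 32.6%. Msmo1-201 held 70.1% and 78.5% beside 20.1% and 12.0% for Msmo1-206, and Hsd17b7-201 held 71.2% and 73.2% beside 20.7% and 23.7% for Hsd17b7-204, both of the second forms being processed transcripts. Mvk-201, at 73.2% and 73.8%, and Dhcr7-202, at 68.2% and 71.7%, were the sole forms of their genes past 10% in both libraries.

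The libraries were compared with each other gene by gene, as the design has no other contrast. Ratios are those of counts scaled by TMM, a normalisation for library composition, with replicate 2 over replicate 1, and the test was a two-sided exact binomial test with Benjamini-Hochberg adjustment over 15438 genes. The error in this test is that of counting alone, so it contrasts the pair of libraries rather than any conditions. In bulk RNA, fewer cells of a type and less RNA per cell cannot be told apart. None of the 28 genes differed by a ratio of 2 or more at an adjusted p under 0.05, where 4.77% of all genes did, 3.71% higher and 1.07% lower in replicate 2. At a ratio of 1.5 or more there were 2, or 1 in each direction, against 10.9% of all genes, 8.14% higher and 2.77% lower. Without a ratio criterion 21 of 28 passed, against 50.4% of all genes. Of these 10 were higher and 11 lower in replicate 2, against 25.2% and 25.1% of all genes. With scaling by total counts alone the split was 4 higher and 16 lower. The share that passes depends on the counts of the genes, and shares over genes of like counts were not taken. Scaling by total counts moved log2 ratios by about -0.08, so smaller ratios below hold for TMM scaling. The median log2 ratio of the 28 genes was -0.03, beside 0.01 over all genes tested and -0.03 over those with a mean of 1 TPM or more. The median size of the log2 ratio, regardless of sign, was 0.18 for the 28 genes, 0.25 for all genes tested and 0.19 at 1 TPM or more.

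**Figure D3:**
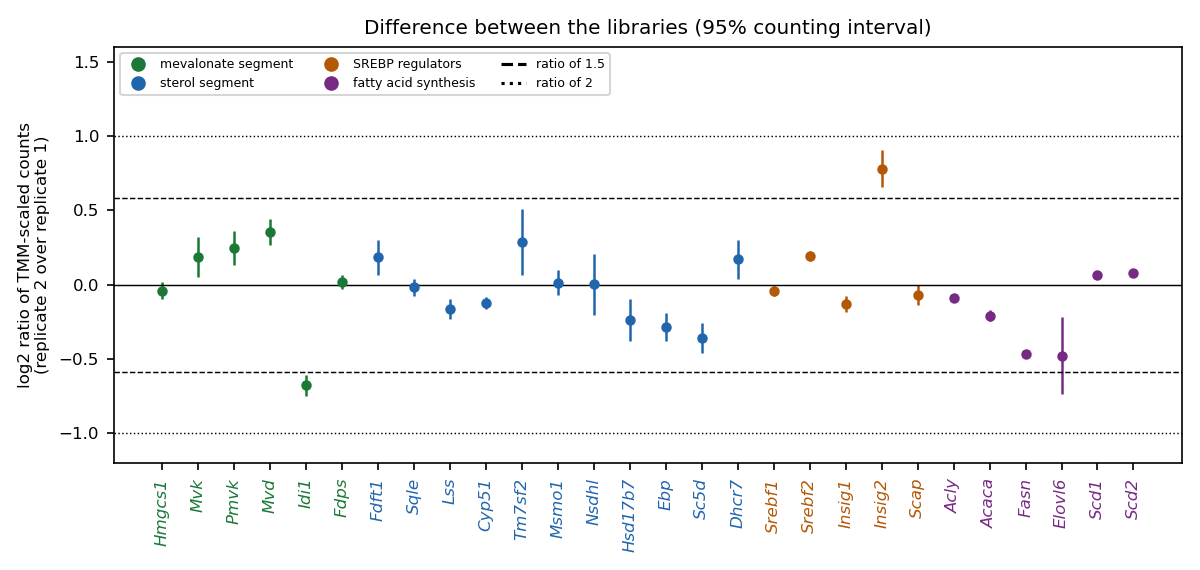
Log2 ratio of TMM-scaled counts, replicate 2 over replicate 1, for each gene, with bars for the 95% counting interval, dashed lines at a ratio of 1.5 and dotted lines at a ratio of 2. Insig2 at 0.78 and Idi1 at -0.68 lie past the dashed lines and no gene reaches the dotted ones.

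Insig2 and Idi1 were the genes past the ratio of 1.5, in opposite directions. Insig2 had 788 counts in replicate 1 and 1450 in replicate 2, a log2 ratio of 0.78 (95% counting interval 0.65 to 0.91) with an adjusted p of 1.70e-34 by the exact binomial test. The credibility bounds of its TPM, 6.03 to 8.14 in replicate 1 and 9.11 to 11.5 in replicate 2, did not overlap. Insig1 moved slightly the other way, with a log2 ratio of -0.13 (-0.18 to -0.07). Idi1 had 4231 and 2836 counts, a log2 ratio of -0.68 (-0.74 to -0.61) with an adjusted p of 3.60e-83 by the same exact test. Its bounds, 13.4 to 14.5 TPM and 8.29 to 9.30 TPM, were also apart.

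Within the mevalonate segment the other genes did not follow Idi1. Mvd, Pmvk and Mvk were higher in replicate 2, with log2 ratios of 0.36 (0.27 to 0.45), 0.25 (0.13 to 0.36) and 0.19 (0.05 to 0.32). Hmgcs1, at -0.04, and Fdps, at 0.02, had intervals that included 0. With total counts Mvk did not pass, while Hmgcs1 at -0.12 and Fdps at -0.07 did. In the sterol segment 5 genes were lower at an adjusted p under 0.05, 3 were higher and 3 did not pass, where 25.1% of all genes were lower and 25.2% higher. Sc5d fell by 0.36 on the log2 scale (-0.46 to -0.26), Ebp by 0.28, Hsd17b7 by 0.24, Lss by 0.16 and Cyp51 by 0.12. Tm7sf2 at 0.29 (0.06 to 0.51), Fdft1 at 0.18 and Dhcr7 at 0.17 were the higher ones, while Sqle, Msmo1 and Nsdhl did not pass. With total counts none of the 3 higher sterol genes passed, at adjusted exact p of 0.128, 0.153 and 0.294, and Sqle at -0.10 did.

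Of the 6 fatty acid genes, 4 were lower and 2 higher in replicate 2, where 25.1% and 25.2% of all genes were. Fasn had 42383 and 32848 counts and a log2 ratio of -0.47 (-0.49 to -0.45), Elovl6 one of -0.48 (-0.74 to -0.22), Acaca one of -0.21 (-0.25 to -0.17) and Acly one of -0.09 (-0.11 to -0.06). Fasn, Acaca and Acly are consecutive enzymes that make palmitate, and all 3 were lower in replicate 2. Scd1 and Scd2 had log2 ratios of 0.06 and 0.08 with TMM scaling, and of -0.020 and -0.0066 with scaling by total counts, so their direction depends on the scaling. Of the regulators, Srebf2 was higher in replicate 2 at 0.19 (0.16 to 0.23), while Srebf1 at -0.04 and Scap at -0.07 did not pass after adjustment, at adjusted p of 0.0799 and 0.0725 by the exact test. Both passed as lower with total counts, at -0.12 and -0.16, and with DESeq2 size factors, at -0.05 and -0.08 with adjusted exact p of 0.0292 and 0.0412.

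Expected counts of 6 genes were not whole in at least 1 library, as happens where reads are shared with other features, namely Idi1, Fdps, Fdft1, Tm7sf2, Scd1 and Scd2. Values of these genes are less certain, by an amount that the counts do not give. Tm7sf2 overlaps Vps51 on the same strand. Other gene models on the same strand overlap Fdps, Srebf1, Srebf2, Acly, Acaca, Elovl6 and Scd2. Gene models on the opposite strand overlap Idi1, Insig2, Hmgcs1, Mvd, Fdft1, Lss, Cyp51, Srebf1, Scap, Acaca and Elovl6, and whether counting used strand is not given in the sources used here.

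Other genes of the same pathways were read from 4 lists. Of 11 isoprenoid genes 10 were detected, led by Fnta, a subunit of the protein farnesyl and geranylgeranyl transferases, at 16.3 and 14.1 TPM, Acat2, which makes acetoacetyl-CoA, at 16.2 and 14.03 TPM, and Coq2, of ubiquinone synthesis, at 13.0 and 11.8 TPM. Idi2, the paralogue of Idi1, was at 0 and 0.01 TPM and was the one not detected, on 1 and 2 counts against 4231 and 2836 for Idi1, and Fntb was at 2.17 and 2.24 TPM. By the exact binomial test without a ratio criterion 7 of 10 tested isoprenoid genes were lower in replicate 2 and 0 were higher, against 25.1% and 25.2% of all genes. Their median log2 ratio was -0.19.

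All 12 genes of SREBP activation and reductase turnover were detected, with a median of 6.84 TPM. Among them, Faf2 was at 9.77 and 10.2 TPM and Nfyc, a subunit of NF-Y, at 10.03 and 8.61 TPM. Erlin1 at 2.24 and 2.32 TPM and Mbtps2, the site-2 protease that releases the active SREBP fragment, at 1.47 and 1.44 TPM were the lowest. In this list 6 of 12 were higher and 3 were lower, against 25.2% and 25.1% of all genes, the median log2 ratio was 0.08, within the shift between scalings, and there were 0 past a ratio of 1.5.

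Genes of sterol sensing, storage and transport were more uneven, with 9 of 14 detected. After Lbr, the highest were Pgrmc1 at 17.8 and 17.1 TPM and Npc2, a lysosomal cholesterol carrier, at 14.4 and 15.5 TPM. Abca1, the cholesterol efflux pump induced by LXR, was at 0.02 TPM in both libraries. Ch25h had 0 counts, which allows up to 0.0228 and 0.0210 TPM. Soat2, which esterifies cholesterol, was at 0.90 and 2.49 TPM. Its log2 ratio of 1.49 (1.26 to 1.73) passed a ratio of 2, as did 4.77% of all genes, with an adjusted p of 1.95e-41 by the exact binomial test. Nr1h3, which encodes LXR-alpha, passed too at 1.40 (0.36 to 2.54), but rests on 11 and 31 counts. The list had 5 of 13 tested genes higher and 2 lower without a ratio criterion, against 25.2% and 25.1% of all genes, and a median log2 ratio of 0.12.

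Of 30 genes of fatty acid supply, elongation and desaturation 20 were detected. Acsl5, which activates fatty acids, was at 43.2 and 38.6 TPM. Slc25a1, the carrier that exports citrate to the cytosol for Acly, was at 25.4 and 33.5 TPM, and Tecr, the reductase of the elongation cycle, at 24.1 and 32.7 TPM. Both of the latter were higher in replicate 2, with log2 ratios of 0.37 (0.31 to 0.43) and 0.46 (0.39 to 0.53), opposite in sign to Acly and Fasn. Mlxipl, which encodes the carbohydrate-responsive factor ChREBP, had 0 counts, which allows up to 0.0118 and 0.0108 TPM. Past a ratio of 2 were Fads3, higher in replicate 2 on 17 and 38 counts, and Elovl4, lower on 17 and 4. By the test without a ratio criterion 10 of 24 genes were higher and 9 lower, against 25.2% and 25.1% of all genes, and the median log2 ratio was 0.07, also within that shift.

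**Figure D4:**
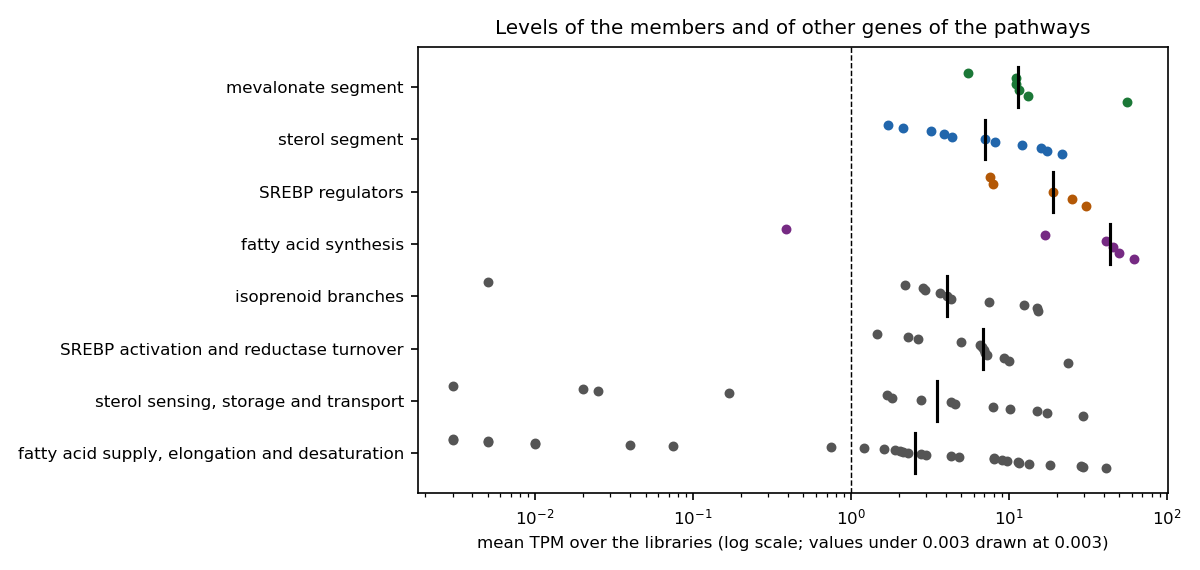
Mean TPM over the libraries on a log axis for each gene of the 4 groups of the set (coloured) and of 4 further lists (grey), with a black bar at the median of each and a dashed line at 1 TPM. Fatty acid synthesis genes have the highest median, 43.4 TPM, and the further lists reach down to genes with 0 counts.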

How the data were processed

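The deposited gene tables made with annotation M4 on mm10 were used, per the labels and each library's manifest; which aligner and quantifier were run is not given in the sources used here. Expected counts, TPM, FPKM, posterior mean TPM, the percent share of a transcript in its gene and other columns (credibility bounds of TPM, level not stated) are the authors' deposited values, per the file headers. Expected counts were rounded for tests. Symbols and coordinates came from GENCODE M21, which matched 42462 of 43346 genes. The 26345 features without a gene identifier held 5.68e-05% and 5.36e-05% of counts and were left out. TMM factors came from edgeR 4.0.16 in R 4.3.3 over genes with 10 or more counts, and size factors from DESeq2 1.42.0 served as an alternative. No quasi-likelihood fit is possible with 1 library on each side. The binomial test was tried on simulated counts that held counting error alone, as the test assumes, so the trial does not cover other variation between libraries. Other steps ran in Python 3.11.15 with scipy 1.17.1. The 28 genes, the further lists and the tests were chosen with earlier results of these data known. All 28 genes were to be named, and of each further list the 3 highest, the 2 lowest and those past a ratio of 2; exceptions are marked in the text. One gene that this rule names is not reported here.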

Additional observations from a re-analysis of the deposited data

How the results depend on the processing

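The count of 27 detected genes was the same with M2 or M3 tables, posterior mean TPM, coding transcripts alone (chosen after seeing the data) and in each library alone, and was 28 with TPM rescaled to protein-coding genes or a minimum of 0.1 TPM and 16 at 10 TPM. The median level of 11.8 TPM was 12.2 with M2, 12.2 with M3 and 48.5 after rescaling to protein-coding genes. It was 10.98 with coding transcripts alone and 12.4 to 12.9 in single libraries. Levels of 7 genes moved by more than 1 SD with M2, and of 7 with M3. This SD is over 2 libraries and differs widely among genes. Fdps, with an SD of 0.0849 TPM, moved at 57.8 TPM with M2 against 56.2 with M4. Fasn rose from 45.4 TPM to 51.8 with M2 and 51.9 with M3, within its SD of 11.5 TPM. Relative to its level Scap changed most, from a mean of 7.60 TPM with M4 to 10.2 with M2 and 9.6 with M3. The cause of the M2 and M3 shifts was not tested. None of the 28 genes passed a ratio of 2 under any scaling, count minimum or annotation tried; with TMM, 2 passed at 1.5 and 21 without a ratio criterion. The latter split, 10 higher and 11 lower, was 10 and 13 with DESeq2 size factors and 4 and 16 with total counts. Idi1 and Insig2 were the genes past 1.5 under each of those settings. The median log2 ratio was -0.11 with total counts and -0.11 with FPKM, and between -0.06 and -0.02 in the other settings. With total counts the log2 ratios of Scd1 and Scd2 reversed to -0.020 and -0.0066. Transcripts with 10% or more of a gene numbered 38 by TPM and 35 by expected counts. No paired analysis was possible because the design has a single group. Ratios could not be recomputed with a library left out. Depth limits mainly Elovl6, Nsdhl and Tm7sf2, which had the fewest counts.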
